A study of Arabidopsis thaliana with 18 samples.

Results

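Petioles of Arabidopsis thaliana exposed for 24 h to light with a reduced ratio of red to far-red (low R:FR) were set directly against petioles kept for 24 h under low blue light. The comparison took the 3 arrays labelled low R:FR and the 3 labelled low blue, 6 of the 18 arrays of the series, and all 22746 probe sets that are not array controls. No control array entered the difference. All plants were of the Col-0 accession, and the labels name no mutation or transgene. Seeds had 3 d at 4 °C, seedlings moved to their own pots after 10 d, and growth went on to day 28 with a 9 h photoperiod at 180 µmol per m2 per s. Petioles of the light experiment were harvested at an age of 29 d. Besides low R:FR and low blue, that experiment held 3 arrays of control light and 3 of both treatments together, called combined here. A density experiment held 3 arrays of plants grown apart and 3 from a canopy with 2066 plants per m2, each at 37 d of age, with petioles of several plants pooled per sample. Whether the replicates of a light treatment were grown or pooled separately is not stated in the labels, and p-values therefore measure the spread between these samples, which may be technical.

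A leaf canopy absorbs red and blue light and lets far-red light through, so neighbours change both signals. Phytochromes read the red to far-red ratio, and cryptochromes and phototropins read blue light. Both pathways reach the phytochrome-interacting factors and the COP1 and HY5 branch, and petiole elongation is a classical response to each signal in rosette plants. The direct comparison asks which transcripts tell the 2 signals apart.

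Values are deposited log2 expression levels, so a difference of 1 is a doubling. Array medians lay between 1.59 and 1.65. Correlations over probe sets ran from 0.9913 to 0.9939 among low R:FR arrays, from 0.9856 to 0.9876 among low blue arrays and from 0.9784 to 0.9855 between them. RCA, the Rubisco activase of green tissue, read 11.19, 11.13 and 11.07 in low R:FR and 10.83, 10.93 and 11.04 in low blue (adjusted p = 0.29). Markers of other cell types with a named probe set were SWEET11 of the phloem, SPCH, FMA and CHX20 of the epidermis and guard cells and PYK10 of the root. None of these 5 was called, and their differences ran from -0.21 to 0.20. SPCH and SWEET11 had means under 1.5 in both treatments, where values are compressed, and FMA and PYK10 lay little above that level. Small differences in such dim genes therefore say little about the share of these cell types. In such whole petioles, fewer cells of a type and less RNA per cell cannot be told apart.

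HYH and the other 3 named members of the blue light list, 4 of 6 named members of the flavonoid list and the cold gene COR15A were higher in low R:FR than in low blue. Those higher in low blue included PORB of chlorophyll synthesis, the SnRK1 subunit AKINBETA1 and the autophagy genes ATG8E and ATG8F. In all, 998 probe sets passed an adjusted p of 0.05 (limma, Benjamini-Hochberg over all probe sets), which was 4.39% of those tested. Of these, 513 (2.26%) were higher in low R:FR and 485 (2.13%) were lower. The median difference was 0.84 among the higher and -0.69 among the lower. A difference of at least 1 was met by 303 of the called probe sets (1.33%), 192 higher and 111 lower, and of at least 2 by 35 and 20. In 20.8% of all probe sets the arrays of the 2 treatments did not overlap, with low R:FR above in 9.15% and low blue above in 11.6%. Over the 6 fits that each left out 1 of the 6 arrays, the calls numbered 569 to 960, with 569 when low R:FR replicate 2 and 649 when low R:FR replicate 3 was left out. Single annotated genes accounted for 497 calls, and only 81 of them had a symbol.

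**Figure D1:**
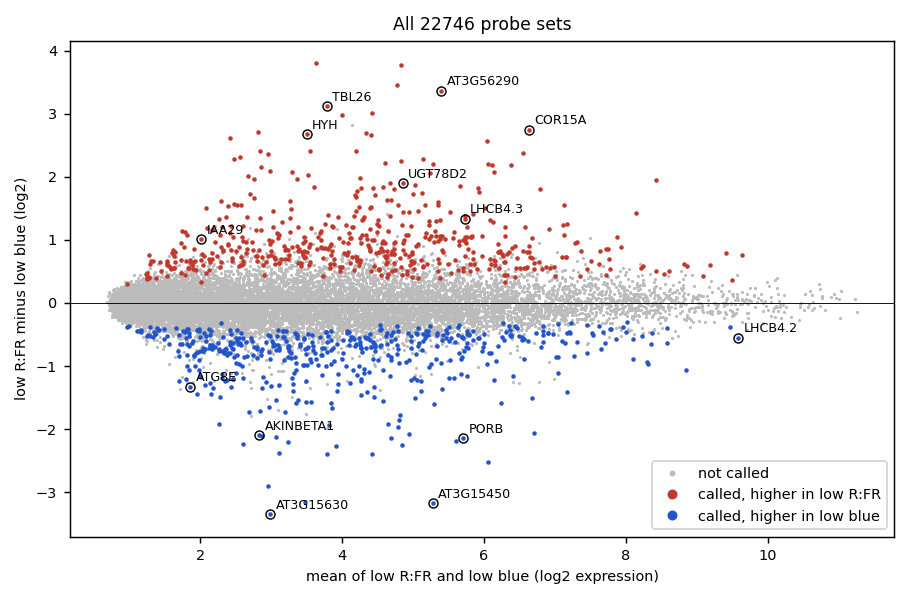
Difference of low R:FR minus low blue (log2, vertical axis) against the mean of both groups (log2 expression, horizontal axis) for each of the 22746 probe sets. Grey points were not called, red points were called higher in low R:FR and blue points higher in low blue, and circles mark genes named in the text; the 513 red and 485 blue points extend to 3.8 and -3.35.

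The gene with the largest difference upward was AT3G56290, for which the gene table gives no symbol. It read 7.08, 7.17 and 6.98 in low R:FR and 4.03, 3.79 and 3.31 in low blue. The groups did not overlap, and the level was 10.3-fold higher in low R:FR (log2 difference 3.37 ± 0.24, limma standard error, adjusted p = 4.5e-07). TBL26 belongs to the TRICHOME BIREFRINGENCE-LIKE family, whose characterised members O-acetylate wall polysaccharides. It read 5.69, 5.59 and 4.76 in low R:FR and 2.16, 2.24 and 2.27 in low blue. All 3 low R:FR arrays lay far above the low blue arrays, by 8.71-fold (3.12 ± 0.32, adjusted p = 1.8e-05).

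COR15A encodes a chloroplast protein that protects membranes during freezing. It read 8.06, 7.91 and 8.06 in low R:FR and 5.26, 5.07 and 5.46 in low blue, 6.73-fold higher in low R:FR with no overlap (2.75 ± 0.22, adjusted p = 2.1e-06). Its neighbour in the genome, COR15B, was called in the same direction by 0.64 ± 0.14 (adjusted p = 0.016), with low blue arrays at 1.01 to 1.43, close to the bottom of the scale. The COR15B call was lost without any one of low R:FR replicates 1 and 2 and low blue replicates 1 and 2 (adjusted p up to 0.087). The other named members of the cold and dehydration list were not called. COR47, a dehydrin, differed by -0.07 ± 0.14 (adjusted p = 0.87). LTI30, another dehydrin, differed by 0.52 ± 0.18 (adjusted p = 0.13), higher in low R:FR without overlap. So 2 of the list's 4 named members were called, against 3.72% of all 13350 named genes in either direction, 1.82% higher and 1.9% lower.

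The 12 highest differences among single genes ran from 1.98 to 3.37, and the 12 lowest from -3.35 to -1.93. The rule that chose these 24 required that the groups not overlap, so non-overlap is no added support for any of them. Of the 998 called probe sets 994 did not overlap. All 24 stayed called when any one of the 6 arrays was left out. No symbol is given for 8 of the highest and 10 of the lowest. Among those higher in low R:FR, AT5G57785 differed by 2.98 ± 0.46, AT2G27420 by 2.62 ± 0.34, AT1G23205 by 2.27 ± 0.42 and AT3G57020 by 2.20 ± 0.20. AT2G27420 had a low blue mean under 1.5, where values are compressed, so its size is uncertain. Among called probe sets that no table ties to a gene, the 2 highest differed by 3.77 and 3.8, above every named gene, and the 2 lowest by -3.16 and -2.52.

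**Figure D2:**
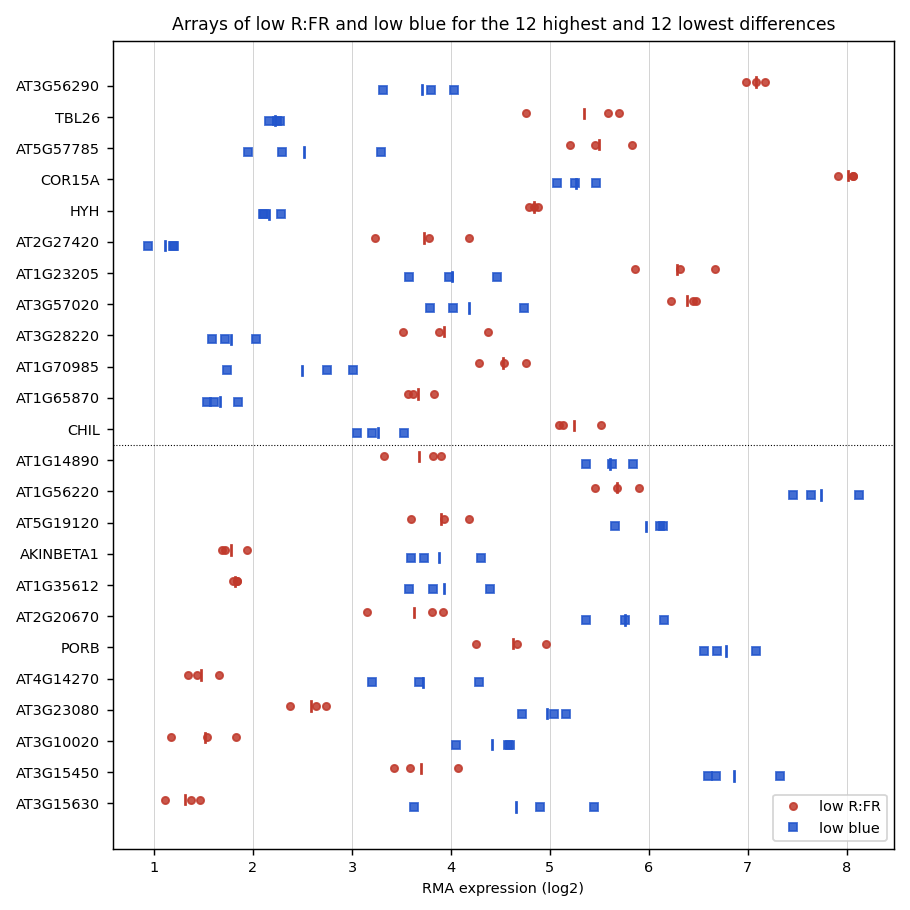
Expression (log2, horizontal axis) of the 12 genes with the highest and the 12 with the lowest difference (vertical axis, sorted by difference) on each array of low R:FR (red circles) and low blue (blue squares), with short bars at the group means. For each of the 24 genes the 3 arrays of one group lie apart from the 3 of the other, as the rule that chose them requires.

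At the other end, AT3G15630 read 1.11, 1.37 and 1.46 in low R:FR and 5.44, 4.90 and 3.63 in low blue. The groups did not overlap (-3.35 ± 0.51, adjusted p = 0.00075). The low R:FR mean lay under 1.5, at the bottom of the scale, so no fold is given and the gene's place as the lowest is uncertain. AT3G15450 read 3.42, 3.58 and 4.07 against 7.32, 6.67 and 6.6, 9.01-fold higher in low blue with no overlap (-3.17 ± 0.46, adjusted p = 0.00045). AT3G10020 read 1.53, 1.17 and 1.83 against 4.58, 4.6 and 4.05 (-2.90 ± 0.36, adjusted p = 0.00011). Its low R:FR arrays also lay near the bottom of the scale, so its size and rank are uncertain. AT1G35612, also higher in low blue, is listed as a pseudogene (-2.1 ± 0.21, adjusted p = 1.2e-05).

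The blue light and HY5 list holds 33 genes, of which only 4 had a named probe set. All 4 were called, each higher in low R:FR, against 3.72% of all named genes in either direction. HYH is the close homologue of HY5, a bZIP factor that acts in photomorphogenesis. It read 4.79, 4.84 and 4.88 in low R:FR and 2.28, 2.11 and 2.1 in low blue. Replicates were tight in both groups, and the level was 6.37-fold higher in low R:FR (2.67 ± 0.29, adjusted p = 3.5e-05). AFR, an F-box protein of phytochrome A signalling, read 5.12, 5.47 and 5.47 against 3.68, 4.24 and 4.01, without overlap (1.38 ± 0.19, adjusted p = 0.00027). AT3G44450 and AT3G52740, listed there by locus, differed by 1.55 ± 0.19 (adjusted p = 0.0001) and 0.84 ± 0.14 (adjusted p = 0.0014). The receptors of blue light were not analysed here. The gene next to AFR, AT2G24550, differed in the opposite direction by -1.72 (adjusted p = 0.0049).

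In the flavonoid list 4 of 6 named members were called, all higher in low R:FR, against 1.82% of all named genes called higher. The list's median difference was 1.41 against -0.01 over all named genes. CHIL, a chalcone isomerase-like protein that promotes flavonoid synthesis, read 5.09, 5.13 and 5.52 in low R:FR and 3.05, 3.20 and 3.52 in low blue (1.98 ± 0.31, adjusted p = 0.00095). UGT78D2, the flavonoid 3-O-glucosyltransferase, read 5.70, 5.85 and 5.85 against 3.86, 4.04 and 3.8 (1.90 ± 0.16, adjusted p = 3.8e-06). Neither gene's groups overlapped. AT1G06000, listed by locus, differed by 1.91 ± 0.18 (adjusted p = 1.0e-05). UGT78D1, which transfers rhamnose to flavonols, differed by 0.93 ± 0.20 (adjusted p = 0.011), a call that was lost without low R:FR replicate 1 or without low blue replicate 2 (adjusted p up to 0.067). DFR, of the anthocyanin branch, differed by -0.05 (adjusted p = 0.90) and UF3GT, which modifies anthocyanins, by -0.05 (adjusted p = 0.92).

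UGT78D1 and UGT78D2 belong to the UDP-glycosyltransferases, of which 5 of 47 named members were called higher and 2 lower. Over all named genes 1.82% were called higher and 1.9% lower. UGT74D1, which glucosylates auxins, read 5.83, 5.50 and 6.02 in low R:FR and 4.79, 4.63 and 4.74 in low blue (1.07 ± 0.18, adjusted p = 0.0019). UGT88A1 read 6.10, 6.10 and 6.15 in low R:FR and 6.94, 7.03 and 7.04 in low blue, one of the 2 that were higher in low blue (-0.88 ± 0.16, adjusted p = 0.0032). The family's median difference was -0.03, at median levels under 1.5 (1.24 in low R:FR and 1.21 in low blue).

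Genes of the low energy list lay mostly on the low blue side. That list holds genes known to rise under low sugar or in the dark and subunits of SnRK1, the kinase of energy shortage. Of its 6 named members 4 were called higher in low blue, 1 higher in low R:FR and 1 was not called. Over all named genes 1.9% were called higher in low blue and 1.82% higher in low R:FR. AKINBETA1, a beta subunit of SnRK1, read 1.72, 1.69 and 1.93 in low R:FR and 4.3, 3.59 and 3.73 in low blue, 4.27-fold higher there (-2.09 ± 0.22, adjusted p = 3.1e-05). AT2G20670 differed by -2.13 ± 0.42 (adjusted p = 0.0068), AT4G27450 by -1.45 (adjusted p = 3.1e-05) and AT3G15450, described above, was the member with the largest difference. MGL, a methionine gamma-lyase that breaks down methionine, went the other way. It read 6.96, 6.78 and 6.68 in low R:FR and 5.17, 4.76 and 5.23 in low blue (1.76 ± 0.15, adjusted p = 3.8e-06).

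Autophagy recycles cell contents in vacuoles, and ATG8 proteins mark the membranes that enclose them. All 8 named members of this list had a difference below 0, as did 7154 of the 13350 named genes. Of the 8, 2 were called, both higher in low blue, against 1.9% of all named genes called in that direction. In 6 of the 8 every low blue array lay above every low R:FR array, a pattern shown by 10.8% of named genes. ATG8E read 1.07, 1.19 and 1.31 in low R:FR and 3.14, 2.37 and 2.05 in low blue, with the low R:FR arrays at the bottom of the scale (-1.33 ± 0.23, adjusted p = 0.002). ATG8F read 5.17, 4.72 and 4.74 against 6.01, 5.89 and 5.39 (-0.89 ± 0.18, adjusted p = 0.009), and its call was lost without low R:FR replicate 2 (adjusted p = 0.054). ATG8 genes resemble each other, so probes may read more than 1 of them. SDP1, the lipase that starts the breakdown of stored oil, also lay higher in low blue (-0.80 ± 0.15, adjusted p = 0.0037).

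**Figure D3:**
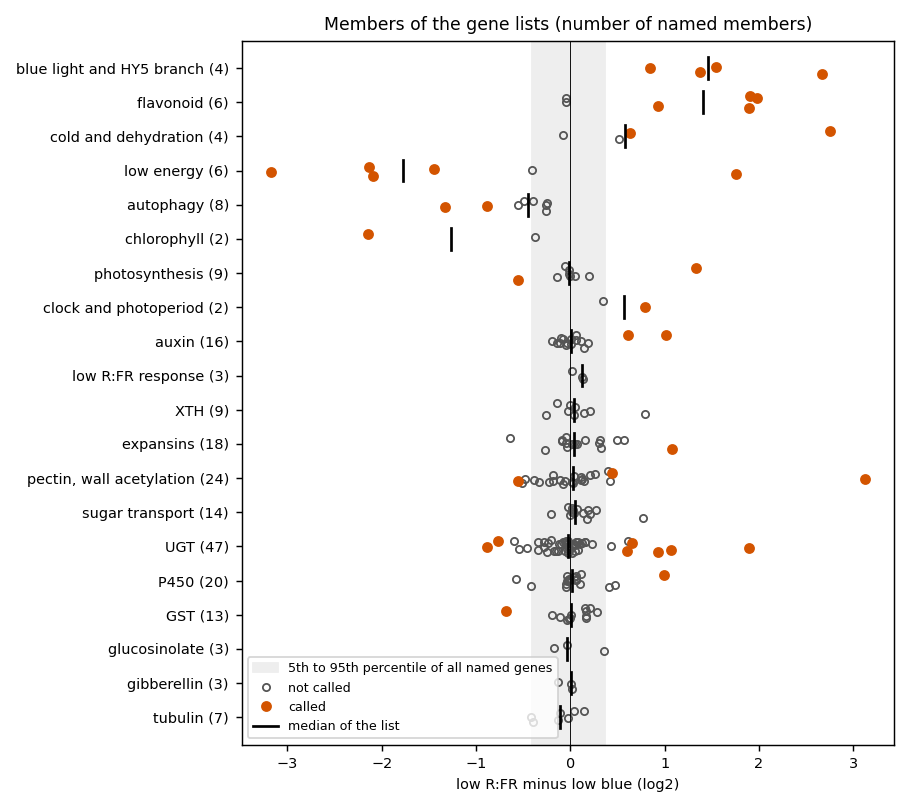
Difference of low R:FR minus low blue (log2, horizontal axis) for the named members of 20 gene lists (vertical axis, number of members in brackets). Filled points were called, open points were not, black bars are list medians, and the grey band spans the 5th to 95th percentile of all named genes (-0.41 to 0.37); called members of the first 2 lists lie to the right and most of those of the low energy list to the left.

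PORB reduces protochlorophyllide in light-dependent chlorophyll synthesis. It read 4.96, 4.25 and 4.67 in low R:FR and 6.68, 6.56 and 7.09 in low blue. The groups lay well apart, 4.43-fold higher in low blue (-2.15 ± 0.22, adjusted p = 1.7e-05). In the gene table (TAIR10.1) PORB overlaps AT4G27450, which differed in the same direction as given above, and whether their probes are fully separate was not tested. CHLM, an earlier enzyme of the same pathway, differed by -0.37 ± 0.12 (adjusted p = 0.098) and was called only without low blue replicate 1 (adjusted p = 0.049).

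Among 9 named genes of the photosystems, antenna and Rubisco, 1 was called in each direction and the median was -0.01. Over all named genes 1.82% were called higher and 1.9% lower, and 1 call each way is not read as a trait of the list. Both called genes encode forms of CP29, a minor antenna protein of photosystem II. LHCB4.3 read 6.40, 6.32 and 6.46 in low R:FR and 4.88, 5.27 and 5.03 in low blue, 2.53-fold higher in low R:FR (1.34 ± 0.16, adjusted p = 8.1e-05). LHCB4.2 read 9.22, 9.33 and 9.37 against 9.78, 10.10 and 9.71, the reverse order (-0.55 ± 0.10, adjusted p = 0.0046). The call of LHCB4.2 was lost when the 6 arrays were fitted alone (adjusted p = 0.052). LHCB4.1, the third gene of CP29, differed by -0.05 (adjusted p = 0.86). GI, a clock and photoperiod gene, was higher in low R:FR by 0.80 ± 0.14 (adjusted p = 0.0032).

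Genes of auxin, of the shade response and of wall growth were also described. Of 16 auxin genes 2 were called, both higher in low R:FR, against 3.72% of all named genes in either direction. The list's median difference was 0.01, at median levels under 1.5 (1.055 in low R:FR and 1.015 in low blue). IAA29, an Aux/IAA repressor that responds to auxin and to shade, read 3.08, 2.21 and 2.25 in low R:FR and 1.5, 1.6 and 1.41 in low blue (1.01 ± 0.21, adjusted p = 0.0095). GH3.17, which joins auxin to amino acids, differed by 0.61 ± 0.14 (adjusted p = 0.018), and its call was lost without any one of 4 arrays, low R:FR replicates 2 and 3 and low blue replicates 1 and 2 (adjusted p up to 0.10). Of 17 genes listed for the response to low R:FR, 3 had a named probe set, and none of these was called. HAT2, a homeodomain gene induced by low R:FR and auxin, read 2.74, 2.82 and 2.60 in low R:FR and 2.52, 2.66 and 2.59 in low blue (0.13 ± 0.12, adjusted p = 0.70).

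Of the 18 expansins, which loosen walls, only EXPB3 was called (1.08 ± 0.23, adjusted p = 0.011), and its call was lost without low blue replicate 1 (adjusted p = 0.058). None of 9 xyloglucan endotransglucosylases was called. Median levels lay under 1.5, where values are compressed, for the expansins (1.34 in low R:FR and 1.36 in low blue). The same held for the xyloglucan endotransglucosylases (1.46 and 1.41). XTH19, the member with the largest difference, read 4.14, 3.58 and 2.55 in low R:FR and 3.67, 1.94 and 2.30 in low blue, so its groups overlapped (0.79 ± 0.44, adjusted p = 0.41). EXO, a brassinosteroid-responsive growth gene, read 4.75, 4.80 and 4.51 against 6.81, 4.5 and 6.16 (-1.13 ± 0.46, adjusted p = 0.22). Among the alternatives run, EXO was called only without low blue replicate 2, the array at 4.5 (-1.80, adjusted p = 0.013). In the list of pectin modification and wall acetylation, to which TBL26 belongs, 2 of 24 were called higher and 1 lower. Over all named genes 1.82% were called higher and 1.9% lower. So few calls among the expansins and in this list are not read as a trait of either list. No member of the lists for sugar transport (14 named), cellulose and secondary walls (9), tubulins (7), jasmonate and defence (7), glucosinolates (3) and gibberellin (3) was called. With the 6 arrays fitted alone, CSLA03 of the cellulose list passed (-0.61, adjusted p = 0.039). A p that misses the threshold does not show that a gene's levels were equal.

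Of the 81 called genes with a symbol, 34 stayed called without any one array, 22 of them higher and 12 lower in low R:FR. Several of the 34 act in metabolism or the cytoskeleton, and they were picked for description after their values were seen. THIC, which makes the pyrimidine part of thiamine, read 5.18, 5.16 and 4.92 in low R:FR and 4.11, 4.10 and 4.19 in low blue (0.95 ± 0.15, adjusted p = 0.00093). SBE2.2, a starch branching enzyme, was higher in low R:FR by 0.58 ± 0.10 (adjusted p = 0.0031). The actin-bundling LIM proteins WLIM2a and WLIM2b were both higher in low blue. WLIM2a read 3.97, 3.75 and 3.96 against 4.50, 4.71 and 4.81 (-0.78 ± 0.13, adjusted p = 0.0016), and WLIM2b differed by -0.60 ± 0.09 (adjusted p = 0.00095). BPC1, a GAGA-binding transcription factor, lay at 1.91, 1.80 and 1.76 in low R:FR and 2.42, 2.55 and 2.51 in low blue (-0.67 ± 0.09, adjusted p = 0.00023).

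The treatments were also set against control light. Low R:FR against control gave 197 calls (0.866%) and low blue against control 132 (0.58%), comparisons that share the control arrays. Without control replicate 1, 2 or 3 the first count became 472, 119 and 84 and the second 85, 30 and 127, while the direct comparison kept 961 to 1153 calls. MGL was above control in low R:FR by 1.41 (adjusted p = 0.00014) and differed by -0.34 in low blue (adjusted p = 0.48). LHCB4.3 was below control in low blue (-1.07, adjusted p = 0.0045) and differed by 0.27 in low R:FR (adjusted p = 0.54). These calls of MGL and LHCB4.3 held without any one control array.

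HYH read 4.06, 3.10 and 3.11 in control light, between the treatments. It differed from control by 1.41 in low R:FR (adjusted p = 0.028, and 0.12 and 0.16 without control replicates 2 and 3) and by -1.26 in low blue (adjusted p = 0.063). PORB read 5.90, 5.59 and 5.73 in control light and differed by -1.11 in low R:FR (adjusted p = 0.018, and 0.076 without control replicate 3) and by 1.04 in low blue (adjusted p = 0.042, lost without any one control array, with adjusted p up to 0.17). COR15A differed by 1.13 in low R:FR (adjusted p = 0.02, and 0.061 without control replicate 3) and by -1.62 in low blue (adjusted p = 0.0037). AT1G69570 was above control in low R:FR by 1.34 (adjusted p = 0.00053) and in low blue by 0.99 (adjusted p = 0.0093, and 0.065 without control replicate 2). Its direct difference was 0.35 ± 0.16 (adjusted p = 0.30).

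Under both treatments together the genes did not all take the same place. Combined against low blue gave 292 calls (1.28%) and combined against low R:FR gave 102 (0.448%). HYH read 4.39, 4.17 and 3.68 in combined light, 1.92 above low blue (adjusted p = 0.0023) and -0.76 from low R:FR (adjusted p = 0.45). CHIL read 3.68, 3.65 and 3.67, lower than in low R:FR (-1.58, adjusted p = 0.028) and 0.41 from low blue (adjusted p = 0.71). PORB read 4.98, 5.38 and 5.66, lower than in low blue (-1.44, adjusted p = 0.0021) and 0.71 from low R:FR (adjusted p = 0.23). IAA29 read 3.89, 3.15 and 3.18, and combined lay 1.90 above low blue (adjusted p = 0.00014).

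**Figure D4:**
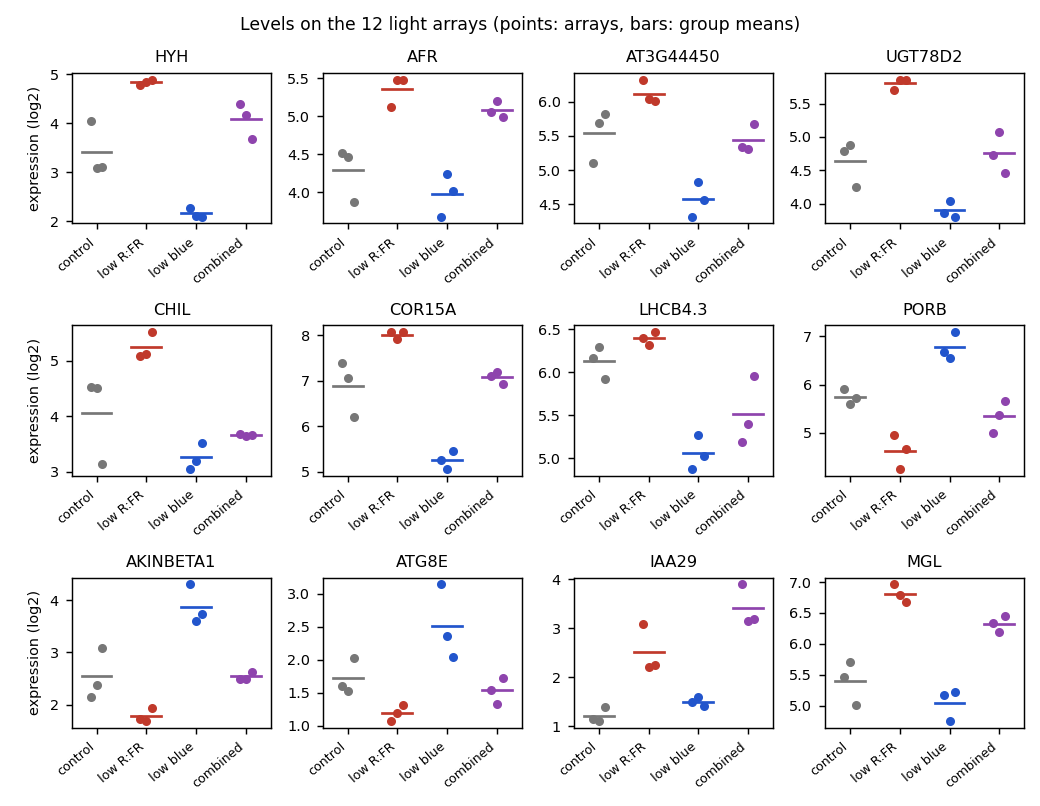
Expression (log2, vertical axes with their own ranges that do not start at 0) of 12 genes on the 3 arrays each of control light, low R:FR, low blue and combined (horizontal axes); points are arrays and bars are group means. Low R:FR and low blue stand apart in every panel, while the combined arrays lie nearer to low R:FR for HYH and nearer to low blue for CHIL.

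The density experiment shares no array with the difference of low R:FR and low blue. The calls of both comparisons do share the spread estimated over all 18 arrays. Canopy plants against single plants gave 479 probe sets higher (2.11%) and 489 lower (2.15%). Of the 513 probe sets higher in low R:FR than in low blue, 95 (18.5%) were lower in the canopy and 23 (4.48%) were higher. Of the 485 that were lower, 85 (17.5%) were higher in the canopy and 9 (1.86%) were lower. These 95 and 85 were 19.4% of all canopy-lower and 17.7% of all canopy-higher probe sets. The median canopy change was -0.26 in the first set and 0.24 in the second, against -0.005 over all probe sets. With the 12 light arrays and the density arrays fitted apart, 17.1% of the probe sets then called higher were lower in the canopy. Of those called lower, 16.5% were higher in the canopy. Over all probe sets these shares were 1.65% lower and 1.75% higher. Many probe sets are too dim to be called. With the fit limited to a mean of at least 2, 20.1% of the first set were lower in the canopy and 4.45% higher. Of the second set there, 20.8% were higher and 1.95% lower, against 4.81% higher and 4.6% lower over all probe sets kept. Leaving out canopy replicate 2, canopy replicate 3 or single replicate 3 took the 17.5% to 10.3%, 11.6% and 11.5%, with 1.2%, 1.48% and 1.15% of all probe sets then called higher in the canopy.

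Named genes show both outcomes. AT3G15450 rose in the canopy by 3.75 ± 0.46 (adjusted p = 0.00012) and AKINBETA1 by 1.69 ± 0.22 (adjusted p = 0.00025), in the direction of low blue. LHCB4.3 fell by 1.42 on the log2 scale (-1.42 ± 0.16, adjusted p = 6.7e-05), UGT78D2 by 1.05 (-1.05 ± 0.16, adjusted p = 0.00089) and GI by 0.95 (-0.95 ± 0.14, adjusted p = 0.00083), again towards low blue. PORB differed by -0.19 ± 0.22 (adjusted p = 0.80), HYH by -0.15 ± 0.29 (adjusted p = 0.90) and COR15A by -0.29 ± 0.22 (adjusted p = 0.66), and none of these 3 was called in the canopy. IAA29 rose by 1.14 ± 0.21 (adjusted p = 0.0038), in the direction of low R:FR. Of the 12 lowest genes 6 were higher and none lower in the canopy, and of the 12 highest 2 were lower and none higher. Over all probe sets 2.11% were higher and 2.15% lower in the canopy. With a mean of at least 2 these shares were 4.81% and 4.6%.

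The mean level of the 513 and of the 485 probe sets describes each array of the other groups. The mean of the first set minus that of the second was 1.17, 1.21 and 1.14 in low R:FR and -0.74, -0.73 and -0.55 in low blue, which the choice of probe sets fixes. In control light it was 0.42, 0.24 and -0.13, and in combined light 0.42, 0.51 and 0.37. Both groups lay between the treatments, and control replicate 3 lay nearest to low blue. The probe sets were chosen for setting low R:FR and low blue apart, which favours a place between them for any other group. The same difference was 0.82, 0.98 and 0.80 in single plants and 0.34, 0.26 and 0.23 in the canopy, with no overlap. For AT3G15630 the control arrays spread from 1.94 and 3.34 to 4.71, over most of the range between the treatments. No control array enters the direct difference.

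**Figure D5:**
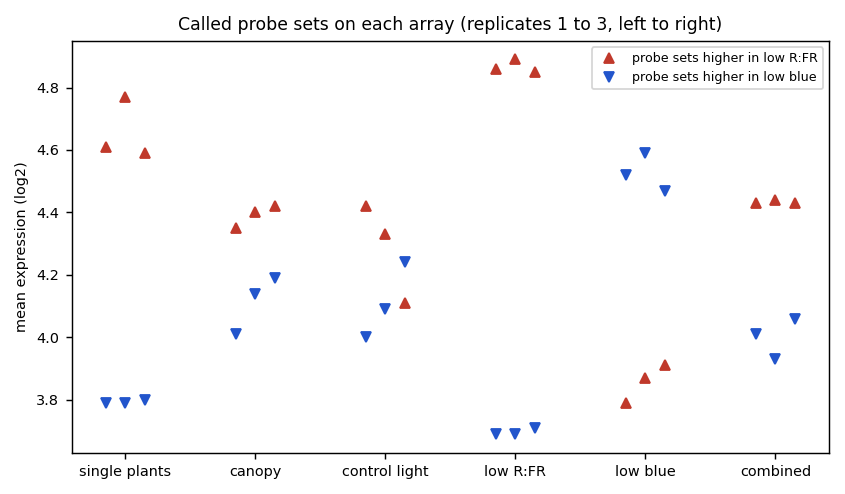
Mean expression (log2, vertical axis, which does not start at 0) of the 513 probe sets higher in low R:FR (red) and the 485 higher in low blue (blue) on each of the 18 arrays (horizontal axis, by group). The 2 sets are apart in opposite order in low R:FR and low blue by construction. The other groups lie between, a place that this choice of probe sets favours. Control light replicate 3 is the array among them where blue lies above red.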

How the data were processed

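Total RNA of petioles was labelled with biotin, 100 ng per sample, for Affymetrix ATH1 arrays, per the labels' protocols. The authors deposited log2 expression values of 22810 probe sets, and the submitters' processing notes name RMA. Its software, version and any other arrays normalized along with these were not given in the sources used here. Bacterial spike-in transcripts were used to check the log base. Relative to bioB, bioC lay 1.5 higher, bioD 3.83 and cre 6.32, where their concentrations predict 1.74, 4.06 and 6.06 in log2 or 1.2, 2.81 and 4.2 in natural log.

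After 64 control probe sets were set aside, a linear model of 6 group means without covariates was fitted to the 18 arrays in limma 3.58.1 (R 4.3.3), with eBayes (12 residual and 4.41 prior degrees of freedom). Two-sided p-values had a Benjamini-Hochberg adjustment across the 22746 probe sets of each comparison, and a call is an adjusted p under 0.05. The ± value is the limma standard error. The number of arrays limits the precision. In 46.8% of probe sets the mean lay below 1.5, where RMA compresses differences.

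The platform annotation gave 1 gene to 13513 probe sets (13350 genes), several to 503 and listed none for 8730, which stay unnamed here. Symbols were updated through the gene table (RefSeq, TAIR10.1), in which 13345 genes matched. Where several probe sets shared a gene, the one brightest on average was used. No coordinates are printed because the array files and labels name no build; the gene table served for names and neighbours only.

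Named genes were the 12 highest and 12 lowest differences among called single genes without overlap, up to 3 called members per gene list (or the largest where none was called) and all members of lists with 5 or fewer named genes. Called genes with a symbol, and AT4G27450, AT2G24550, LHCB4.1, DFR and UF3GT, were added after the values were seen. The comparison and the lists were chosen with earlier results of these data known. Of the cell type lists, those for xylem and for flowers had no named probe set. Canopy against single plants came from the same fit. Samples sharing a replicate number were checked for pairing. Correlations of their deviations were 0.236, 0.075 and 0.064, and those between different numbers ran from -0.253 to 0.181. These values do not settle whether the numbers were pairs, and the main fit did not pair them. Alternatives covered the arrays in the fit, the variance model, array weights, normalization, filters on dim probe sets, the replicate block, a size threshold and leaving out each array.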

Additional observations from a re-analysis of the deposited data

How the results depend on the processing

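The 998 calls became 843 with the 12 light arrays, 815 with the 6 arrays alone, 911 with an intensity trend, 1006 with robust eBayes, 1173 with array weights, 1003 after quantile normalization, 999 after centring each array and 978 or 1040 with a mean of at least 2 or 1.5. With the replicate number as a block there were 1055 calls (551 higher, 504 lower), of which 915 were shared. A log2 size of at least 1 left 303, 192 higher and 111 lower. Leaving out each of the 6 arrays gave 569 to 960 calls, 324 to 530 higher and 245 to 430 lower. The lower calls numbered 298, 245 and 277 without low R:FR replicates 1, 2 and 3 and 281 without low blue replicate 2; fewer arrays were fitted, and no other cause was tested. Of the probe sets lower in low R:FR, the share higher in the canopy ran from 10.3% to 23.8% without 1 array, at 10.3%, 11.6% and 11.5% without canopy replicate 2, canopy replicate 3 and single replicate 3, fits added after seeing the data. The share of the higher ones that were lower in the canopy ran from 13.1% to 22.8%. Over all named genes and alternatives 217 of 1998 values lost the call, 3 gained it and 1778 kept their side of the threshold. The sign changed in 17 values of 10 genes, 0 of them called. Against control light, leaving out 1 control array gave 84 to 472 calls for low R:FR (197 with all) and 30 to 127 for low blue (132 with all), also added later. Promoter motifs were planned but not run. Low signal limits genes such as COR15B, ATG8E, AT2G27420, AT4G14270, AT3G10020 and AT3G15630, whose lower group lay near the bottom of the scale.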
